A study of Mus musculus with 8 samples.

Results

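The epithelial keratins described here are 9 genes, Krt7, Krt8, Krt18, Krt19, Krt20, Krt23, Krt80, Krt5 and Krt14, taken by name from the 46603 genes of a count table. The rule used no measured value, but the list was drawn up with earlier results of these data known. RNA-seq was done on biliary cells sorted from the livers of 4 mice, JV602, JV621, JV624 and JV6314, at the age of 8 weeks. All mice were R26rtTA het/H2B-EGFP het and had received doxycycline from birth (day 0) to postnatal day 5, so both groups carried the same transgenes and had the same pulse and chase. From each mouse, EpCAM+ CD45- cells that still held EGFP (liver label-retaining cells, LLRCs) and those that had lost it (non-LRC cells) gave 1 library each, 4 per group. The question was how the transcripts of LLRCs differ from those of other biliary cells.

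In these mice rtTA is made from the widely active Rosa26 locus, and it switches on a histone H2B-EGFP fusion while doxycycline is given. The fusion protein is then diluted at each division, so EGFP marks a history of few divisions and not a cell type. The study also described EGFP in hematopoietic cells of these mice without doxycycline, which the CD45- gate was set to remove. The mice had a mixed C57BL/6 and CBA background.

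Keratins are the intermediate filament proteins of epithelia. Type I and type II keratins do not form filaments alone: they assemble as pairs of 1 chain of each type. Krt8 (type II) and Krt18 (type I) form the keratin pair of simple epithelia and are the keratins of hepatocytes. Bile duct cells add Krt7 (type II) and Krt19 (type I), and KRT19 staining is a standard way to find ducts in liver sections. Krt23 is a type I keratin of simple epithelia, and Krt20 is best known from the intestine. Krt5 (type II) and Krt14 (type I) are the pair of basal cells in stratified epithelia, and Krt80 is a type II keratin.

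In GENCODE M21 (GRCm38) the 4 type II genes lie on chromosome 15 and 4 of the 5 type I genes on chromosome 11. Krt18 is the type I gene that lies among the type II genes: Krt8 (chr15:101996698-102004482, minus strand) and Krt18 (chr15:102028180-102032027, plus strand) are 23.7 kb apart with no protein-coding gene of the count table between them. Krt7 lies at chr15:101411043-101430313 and Krt19 at chr11:100140810-100148665. Krt23 lies at chr11:99477974-99493137, 39.8 kb from Krt20. All 9 are annotated as protein-coding, and their counts come from exons.

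The end of the central rod shows how alike the members are within a type and how they differ between types, which bears on which reads can be told apart. The 30 coding bases below begin at the helix termination motif, found in the translated coding sequence of 1 transcript of each gene in GENCODE M21 and printed 5′ to 3′ on the coding strand. Krt80 had no match to the motif. Capitals mark bases shared by all printed members of the same type. The search itself fixed part of that likeness. The type I members are
Krt18 (chr15:102031482-102031511, plus strand): ACCTACCGCcGctTgCTGGAGGatggagaa
Krt19 (chr11:100140952-100140981, minus strand): ACCTACCGCaGccTgCTGGAGGgccaggaa
Krt23 (chr11:99480887-99480916, minus strand): ACCTACCGCcGgcTcCTGGAGGgagacact
Krt20 (chr11:99430758-99430787, minus strand): ACCTACCGCcGccTtCTGGAGGgagaagat
Krt14 (chr11:100204113-100204142, minus strand): ACCTACCGCcGtcTgCTGGAGGgagaggac
The type II members are
Krt7 (chr15:101423456-101423485, plus strand): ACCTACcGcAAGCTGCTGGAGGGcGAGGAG
Krt8 (chr15:101997858-101997887, minus strand): ACCTACcGcAAGCTGCTGGAGGGgGAGGAG
Krt5 (chr15:101708881-101708910, minus strand): ACCTACaGgAAGCTGCTGGAGGGcGAGGAG
All lie within 1 exon. The 3 type II sequences were identical at 27 of 30 positions and the 5 type I sequences at 18 of 30, and 15 of 30 positions were shared by all 8.

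What follows the rod differed in length. After these 30 bases end, Krt19 has 12 codons left, Krt18 has 42, Krt23 has 43, Krt20 has 46 and Krt14 has 55, whereas Krt7 has 63, Krt8 has 85 and Krt5 has 108. Krt19 is known as the keratin with almost no tail domain. Over whole coding sequences, pairs of the same type were 58.6 to 75.7% identical and pairs of different types 55.5 to 63.0%.

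Stretches shared with other genes touch the counts of some members. Of the 36-base windows of the transcript, 33.9% of those of Krt8 also occur in another annotated gene, most of them in the pseudogene Krt8-ps. The share was 24.7% for Krt14 (mainly with Krt16 and Krt17), 14.3% for Krt5, 6.4% for Krt18, 5.9% for Krt80 and 1.8% for Krt7. It was 0.0% for Krt19, Krt20 and Krt23. How reads that fit several genes were treated at alignment is not given in the sources used here, so the levels of Krt8 and Krt14 are the least certain. Counting did not use strand, and opposite-strand exons covered at most 5.9% of the exon bases of a member.

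Total counts were 7860021 to 9851819 in the LLRC libraries and 4670132 to 8056103 in the non-LRC libraries. The non-LRC library of JV621 had the fewest genes with a count, 14234, against 16042 to 20430 in the others. Xist was read in 1 library, the LLRC library of JV621 (120 counts), while 4 Y-linked genes together had 668 to 3871 counts in each of the 8. Leaving that library out gave log2 fold changes of 0.20 for Krt18, 0.18 for Krt8, 0.71 for Krt23, -0.11 for Krt19 and 0.17 for Krt7, with the signs of the full comparison below. Of 13605 genes tested with edgeR's quasi-likelihood test, 0.0% passed an adjusted p of 0.05, 5.16% (702 genes) passed it unadjusted, and DESeq2 called 1.62% (221 genes) after adjustment. Levels are given in CPM, counts scaled to sequencing depth with TMM factors, and values per library always follow the mouse order JV602, JV621, JV624, JV6314.

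Of the 9 keratins, 5 were transcribed at levels that could be compared (Krt18, Krt8, Krt23, Krt19 and Krt7) and 4 were at or near 0. None of the 5 was called by edgeR or DESeq2, none had an unadjusted p below 0.05, and in none did the LLRC and non-LRC libraries separate. Over all genes tested, every LLRC library was above every non-LRC library for 2.15% of genes and below for 1.91%. The median log2 fold change (LLRC over non-LRC) of the 5 keratins was 0.17, with 4 above 0 and 1 below, against -0.01 over all genes tested. This contrast depended on the fit, as given in the last section. In sorted bulk samples, fewer keratin-expressing cells and less keratin RNA per cell cannot be told apart.

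Krt18 was the most abundant keratin. It stood at 736, 543, 628 and 753 CPM in the LLRC libraries, and at 712, 358, 519 and 885 CPM in the non-LRC libraries. The non-LRC values enclosed all LLRC values. The means were 665 ± 98.2 and 619 ± 229 CPM (SD, n = 4 each), a log2 fold change of 0.10 (SE 0.31, 95% interval -0.60 to 0.81, edgeR adjusted p = 0.9999). Without the non-LRC library of JV621 the log2 fold change was -0.07, so its direction rested on that library.

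Krt8, the partner of Krt18, had 569, 467, 364 and 479 CPM in the LLRC libraries and 479, 275, 478 and 442 CPM in the non-LRC libraries of the same mice. It was higher in the LLRC library in 3 of 4 mice, and the groups overlapped. The means were 470 ± 83.7 and 418 ± 97.4 CPM (SD, n = 4 each). The log2 fold change was 0.17 (SE 0.27, 95% interval -0.44 to 0.77, edgeR adjusted p = 0.9999), and it was 0.02 without the non-LRC library of JV621.

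Krt23 had the largest difference among the 5 tested members. The LLRC libraries had 308, 250, 452 and 534 CPM and the non-LRC libraries 267, 145, 220 and 428 CPM, in the same order of mice. The LLRC library was the higher one in 4 of 4 mice, by 0.21, 0.79, 1.04 and 0.32 on the log2 scale. The groups still overlapped, because JV6314 was high and JV621 low in both. The means were 386 ± 130.0 and 265 ± 120 CPM (SD, n = 4 each), a log2 fold change of 0.54 (SE 0.39, 95% interval -0.33 to 1.41, edgeR adjusted p = 0.9999). An exact permutation test of the 8 libraries gave p = 0.2 (two-sided), and the exact sign-flip permutation test over the 4 mice gave 0.125, the smallest p that 4 mice allow. With the mouse as a replicate block, which compares the paired libraries, the log2 fold change was 0.59 and the edgeR adjusted p was 1. Without the non-LRC library of JV6314 the log2 fold change was 0.88 (edgeR adjusted p = 0.8489, unadjusted 0.0437), and without that of JV621 it was 0.35.

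Krt19, the duct marker, was the only tested member with a lower mean in LLRCs. Its levels were 144, 95.3, 89.1 and 137 CPM in the LLRC libraries and 123, 94.6, 172 and 146 CPM in the non-LRC libraries. The mice were split: the LLRC library was higher in JV602 (by 0.23 on the log2 scale) and at the same level in JV621 (0.01), and it was lower in JV624 (-0.95) and JV6314 (-0.09). The means were 116 ± 28.0 and 134 ± 33.1 CPM (SD, n = 4 each), a log2 fold change of -0.20 (SE 0.29, 95% interval -0.86 to 0.45, edgeR adjusted p = 0.9999). Without both libraries of JV624 it was 0.05.

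Krt7, its type II partner in ducts, had 75.7, 64.1, 49.9 and 51.2 CPM in the LLRC libraries and 57.1, 35.5, 79.4 and 38.7 CPM in the non-LRC libraries. The LLRC library was higher in JV602, JV621 and JV6314, and the non-LRC library of JV624 was the highest of all 8. The means were 60.2 ± 12.2 and 52.7 ± 20.2 CPM (SD, n = 4 each), with a log2 fold change of 0.19 (SE 0.34, 95% interval -0.57 to 0.96, edgeR adjusted p = 0.9999). Leaving out the non-LRC library of JV624 gave 0.46, and leaving out that of JV621 gave 0.05.

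**Figure D1:**
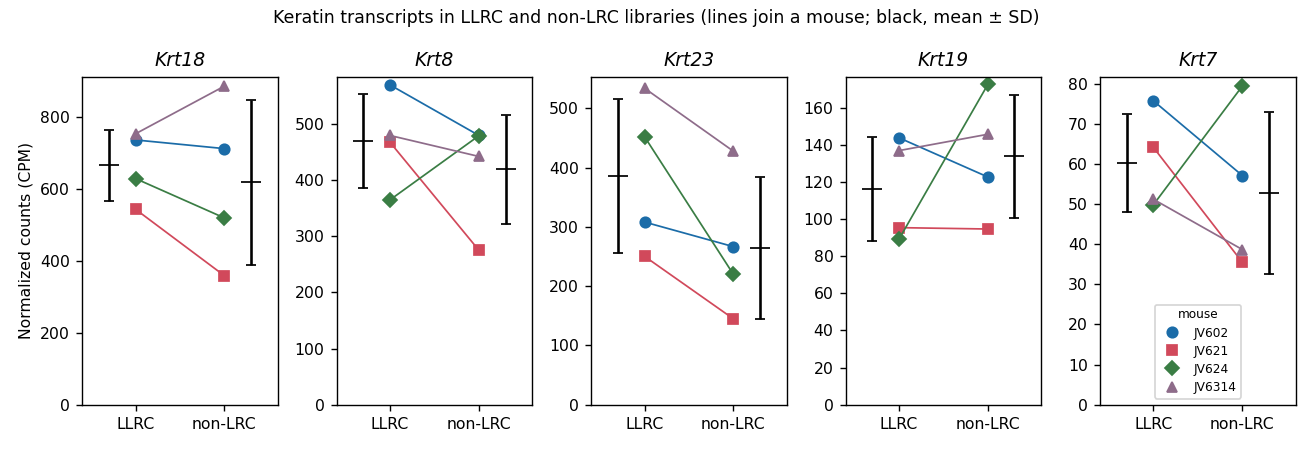
Levels of the 5 tested keratins in CPM (vertical axis, from 0, scaled separately in each panel) in LLRC and non-LRC libraries, with a line joining the 2 libraries of each mouse and black marks for the group mean ± SD (n = 4). Krt23 is lower in the non-LRC library in all 4 mice, and the lines of the other keratins run in both directions.

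**Figure D2:**
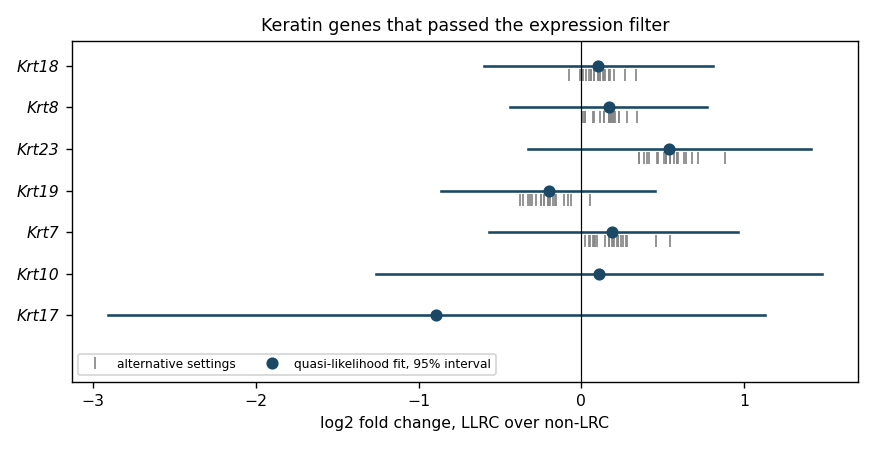
log2 fold change (LLRC over non-LRC) of the 5 tested members and of Krt10 and Krt17, with dots for the quasi-likelihood fit, lines for 95% intervals and grey ticks for the alternative settings of the members. Every interval includes 0, and the ticks of Krt23 all lie above 0 (0.35 to 0.88).

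The non-LRC library of JV624 was the highest of the 8 for both duct keratins, with Krt19 at 172 and Krt7 at 79.4 CPM, while its Krt18 and Krt23 ranked 7th. In the same library, 5 of the 6 mesothelial markers in the table were at their highest, among them Msln at 193 CPM (4.56 to 65.5 in the others) and Upk3b at 197 CPM (12.5 to 83.1 in the others). The mesothelium, the cell layer on the liver surface, is known to express simple keratins. The summed mesothelial list was 859 to 1615 CPM in the LLRC libraries and 1158 to 3051 CPM in the non-LRC libraries. That library also had the highest hepatocyte sum (8456 CPM) and the lowest cholangiocyte sum (68090 CPM). Its cholangiocyte sum was mostly Spp1 (64250 CPM), and its mesothelial sum mostly Gpm6a (2121 CPM). Of the 11 stellate and fibroblast markers, 6 (Dcn, Col1a1, Col1a2, Col3a1, Pdgfrb and Acta2) were at their highest there, although their list's sum was 6080 CPM, mostly from Rgs5 (3159 CPM) and Dcn (2311 CPM), below that of both libraries of JV6314 (9950 and 9192 CPM) and the LLRC library of JV624 (9293 CPM). The part of these cell types in the Krt7 and Krt19 values was not tested.

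The non-LRC library of JV621 was the lowest non-LRC library for all 5 tested keratins, and the lowest of all 8 for Krt7, Krt8, Krt18 and Krt23. The same library had the highest endothelial sum (1198 CPM) and the fewest genes with a count, and their part in its low keratin levels was not tested. Its Epcam level, the marker of the sort, was the highest of all 8 at 766 CPM, against 432 to 652 CPM in the others. The 9 keratins together made up 0.0737% of its counts, and 0.137 to 0.212% in the other libraries.

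Compared per kilobase of exon, Krt18 was above every other member in 8 of 8 libraries, at 463 ± 68.3 CPM per kb in LLRCs and 430.5 ± 159 in non-LRC cells (SD, n = 4 each). Krt8 followed at 239.9 ± 42.7 and 214 ± 49.7 CPM per kb, and Krt23 at 247 ± 83.1 and 169 ± 76.4. These neighbours did not differ beyond their spread: Krt8 was the higher one in 2 of 4 LLRC and 3 of 4 non-LRC libraries. With only windows found in no other gene as length, it was the higher one in 7 of 8. Krt19 came next at 62.6 ± 15.1 and 72.1 ± 17.8 CPM per kb, and Krt7 was lowest at 8.54 ± 1.73 and 7.47 ± 2.87. Krt19 was above Krt7 in 8 of 8 libraries, and both Krt8 and Krt23 were above Krt19 in 8 of 8.

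By CPM, not divided by length, the keratins stood high among the tested genes: Krt18 was at the 99.0 percentile of levels in LLRCs, Krt8 at 98.4, Krt23 at 97.9, Krt19 at 90.7 and Krt7 at 81.8. In non-LRC cells the percentiles were 98.9, 98.2, 96.4, 91.8 and 78.9 in the same order.

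As a share of the reads per exon length of the 5 tested members, Krt18 made up 45.4 ± 1.28% in LLRCs and 47.6 ± 4.09% in non-LRC cells (SD, n = 4 each). Krt8 made up 23.7 ± 4.54% and 24.6 ± 4.18%. Krt23 made up 23.9 ± 6.18% and 18.4 ± 2.91%, and Krt19 made up 6.11 ± 0.883% and 8.41 ± 2.14%. Krt7 made up 0.854% and 0.885%. The libraries of the groups overlapped for each of the 5.

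The type I keratins Krt18, Krt23 and Krt19 together made up 75.4 ± 4.75% of the reads per exon length of the 5 tested members in LLRCs and 74.5 ± 4.53% in non-LRC cells, although the proteins pair with type II chains. The type I gene Krt10, not among the members and not in these shares, had 17.6 and 16.3 CPM per kb, and without the non-LRC library of JV621 its non-LRC mean not divided by length went from 34.5 to 18.0 CPM. Part of the gap between type I and type II depends on how length is counted. When only the 36-base windows found in no other gene were counted as length, type I made up 68.2 ± 5.46% and 67.4 ± 5.23%, and Krt8 made up 30.5% and 31.3%. The exons of Krt7 span 7049 bases over all transcripts and 4094 bases in the transcript used for the sequences. With the length of that transcript for each gene, Krt7 made up 1.445% and 1.489%. Type I then hardly moved, at 75.2 ± 4.76% and 74.4 ± 4.55%.

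**Figure D3:**
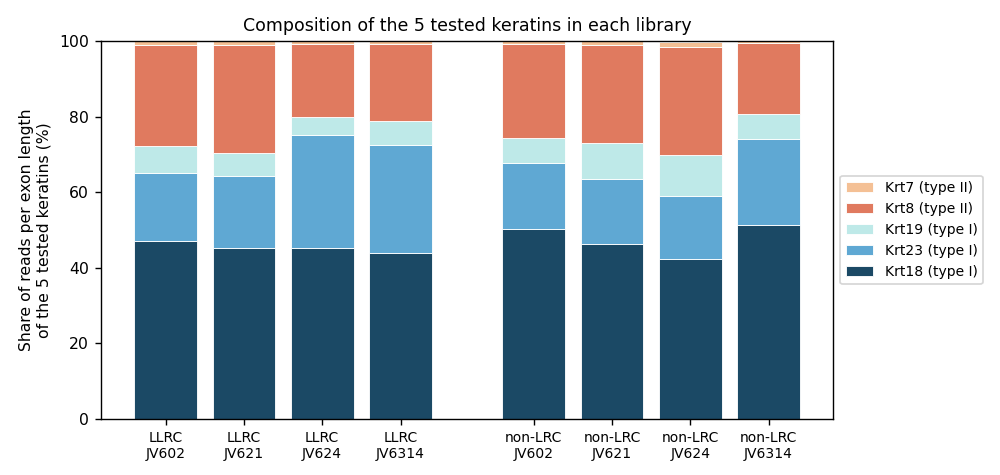
Share of the summed reads per exon length of the 5 tested members (%, stacked bars) taken by each of them in the 4 LLRC and 4 non-LRC libraries, with type I in blue shades and type II in orange shades. Krt18 takes 42.4 to 51.4% of every bar, and Krt23 takes 18.1 to 29.9% in LLRC and 16.5 to 22.8% in non-LRC libraries, ranges that overlap.

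For the pairs, the ratio of the type II to the type I member was taken within each library, which removes the scaling between libraries. The log2 ratio of Krt8 to Krt18 per kilobase was -0.82, -0.66, -1.23 and -1.10 in the LLRC libraries. It was -1.02, -0.83, -0.56 and -1.45 in the non-LRC libraries. The groups overlapped, with means of -0.95 ± 0.26 and -0.97 ± 0.37 (SD, n = 4 each) and a difference of 0.01 (exact permutation test, two-sided, p = 0.9714). Counting only windows found in no other gene as length brought both means closer to 0, at -0.46 and -0.47.

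The log2 ratio of Krt7 to Krt19 per kilobase was -2.85, -2.50, -2.76 and -3.34 in the LLRC libraries and -3.03, -3.34, -3.04 and -3.84 in the non-LRC libraries. It was higher in the LLRC library of each of the 4 mice, though the groups overlapped through JV6314, which was low in both. The means were -2.86 ± 0.35 and -3.31 ± 0.38 (SD, n = 4 each), a difference of 0.45. Without the non-LRC library of JV6314 the difference was 0.27, and without the LLRC library of that mouse it was 0.61. The exact permutation test gave p = 0.1714 (two-sided, 0.3428 after Benjamini-Hochberg adjustment over the 2 ratios), and the exact sign-flip test 0.125. The smallest p that 4 against 4 libraries allow is 0.02857.

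The ratios of Krt23 were looked at without a test. Krt23 to Krt18 was higher in the LLRC library of 4 of 4 mice, at -0.96 ± 0.41 against -1.38 ± 0.15 on the log2 scale per kilobase. Krt23 to Krt19 was higher in 3 of 4 mice, at 1.95 ± 0.56 against 1.16 ± 0.53. Krt19 to Krt18 was higher in LLRCs in 2 of 4 mice. All 3 ratios overlapped between the groups.

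The other 4 members did not pass the expression filter. With no filter beyond 1 count, Krt80, Krt5 and Krt14 entered the edgeR fit and none was called (adjusted p from 0.6332 to 0.9617). Krt20 had 0 counts in all 8 libraries, and a count of 0 allows a level of up to 0.291 CPM in the library of largest and 0.626 CPM in that of smallest scaled size (3 counts, counting error only). Krt80 had 3 counts, all in the non-LRC library of JV624. Krt5 had 1 count, in the LLRC library of JV602.

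Krt14, the basal partner of Krt5, had 10 counts in the LLRC library of JV6314, 11 in the non-LRC library of JV624 and 0 in the other 6. These are levels of 1.11 and 1.74 CPM, from a gene that shares windows with Krt16 and Krt17. Of the 8 listed basal markers, Trp63, Krt6a and Pkp1 had 0 counts in all libraries and the other 5 were low, with at most 51 counts in a library for Krt17, 35 for Dsg3, 15 for Krt15, 12 for Sfn and 4 for Col17a1. The basal genes were not all highest in the same libraries. Krt17 was highest in the libraries of JV621 (6.03 CPM in LLRC and 8.56 CPM in non-LRC), which had no Krt14 count. Sfn was highest in the non-LRC library of JV602, which had no Krt14 count either. It was lowest in the non-LRC library of JV624 (0.158 CPM) and stood at 1.221 CPM in the LLRC library of JV6314. Of the libraries with Krt14 counts, the LLRC library of JV6314 had the highest Dsg3 (3.89 CPM) and the non-LRC library of JV624 the highest Col17a1 (0.631 CPM). Dsc3, a desmosomal cadherin of stratified epithelia, was read in these 2 libraries and in no other, at 6.66 and 0.474 CPM. The type I keratin Krt15, outside the 9, had 15 counts, all in the non-LRC library of JV624, the library that also held the Krt80 counts.

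Of the 45 other keratin genes in the table, 27 had 0 counts in every library, 16 had 1 to 15 counts in all and 2 passed the filter. Krt10, the type I keratin of differentiating epidermis, had 37.1 ± 11.5 CPM in LLRCs against 34.5 ± 33.2 CPM in non-LRC cells (log2 fold change 0.11, SE 0.61). Krt17, a keratin of skin appendages and of injured skin, had 2.66 ± 2.45 and 4.95 ± 3.06 CPM (log2 fold change -0.89, SE 0.90). Both had an edgeR adjusted p of 0.9999, and both were highest in the non-LRC library of JV621, where the 5 tested members were low.

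The genes whose pattern over the 8 libraries lay closest to that of Krt19 were Rpl37a, Pgam1-ps2 and Tmem160. Closeness was the root mean square distance between centred log2 CPM values, 0.086, 0.119 and 0.133, against a median of 0.793 over all genes. Closest to Krt7 were Gm12918, Rita1 and Klf5, at 0.144, 0.144 and 0.146, against a median of 0.788. Of the other 4 tested members, Krt8 was nearest to both, ranking 289th for Krt19 and 114th for Krt7, and Krt23 was farthest from both.

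Keratin filaments are anchored at desmosomes, and 10 of the 14 desmosome genes listed were tested. None was called, and the same test called 0.0% of all 13605 genes, which holds for the lists below as well. Among the 10, 7 had a log2 fold change above 0 and 3 below, and the median was 0.41 against -0.01 over all genes tested. The groups did not overlap for Dsg1b and Dsc2, with every LLRC library higher, as was so for 2.15% of all genes tested. Dsg1b passed the filter only through the LLRC libraries, so nothing is read from this count, and Dsc2 was named after its values were seen.

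Dsc2, a desmosomal cadherin, had 360.0, 368, 514 and 485 CPM in the LLRC libraries and 330, 4.80, 102 and 176 CPM in the non-LRC libraries. The LLRC libraries lay above the others, narrowly so for JV602, and the non-LRC library of JV621 was near 0. The log2 fold change was 1.49 (SE 0.86, edgeR adjusted p = 0.9999). Dsg1b, another desmosomal cadherin, was low, at 4.68 ± 1.36 against 0.875 ± 0.958 CPM (SD, n = 4 each), with a log2 fold change of 2.36 (SE 0.96, edgeR adjusted p = 0.8929). Dsg1b has close copies beside it, and one of these, Dsg1a, had 8.87 ± 5.11 against 17.8 ± 19.3 CPM, so the counts of each are uncertain. Perp, a desmosomal membrane protein, had 170.1 ± 57.6 against 85.1 ± 55.1 CPM (log2 fold change 1.00, SE 0.52, edgeR adjusted p = 0.9999).

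Of the 10 hemidesmosome and cytolinker genes listed, which tie keratins to the basement membrane and to other filaments, 8 were tested and none was called. Their median log2 fold change was 0.12, with 5 above 0 and 3 below. The smallest p-values were those of Dst (log2 fold change 1.01, SE 0.48), a linker of the plakin family, and Ppl (0.72, SE 0.42), a plakin of desmosomes. In both the groups overlapped.

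Of 16 other intermediate filament genes, 5 were tested, none was called and the median was -0.34. In 3 of the 16 no library had more than 3 counts. Vim, the vimentin of mesenchymal and endothelial cells, had 9.50, 10.2, 11.8 and 17.5 CPM in the LLRC libraries and 15.2, 24.9, 59.8 and 52.1 CPM in the non-LRC libraries. Its log2 fold change was -1.63 (SE 0.49, edgeR adjusted p = 0.5556), and it was lower in the LLRC library of each mouse. Prph, the peripherin of neurons, had a log2 fold change of -2.05 (SE 1.11). All 14 genes whose products bind or modify keratins were tested, with a median of -0.01, 7 above 0, 7 below and none called. Ywhaz, a 14-3-3 protein, was at 0.37 (SE 0.25), and Hspb1, a small heat shock protein, at -0.69 (SE 0.52).

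**Figure D4:**
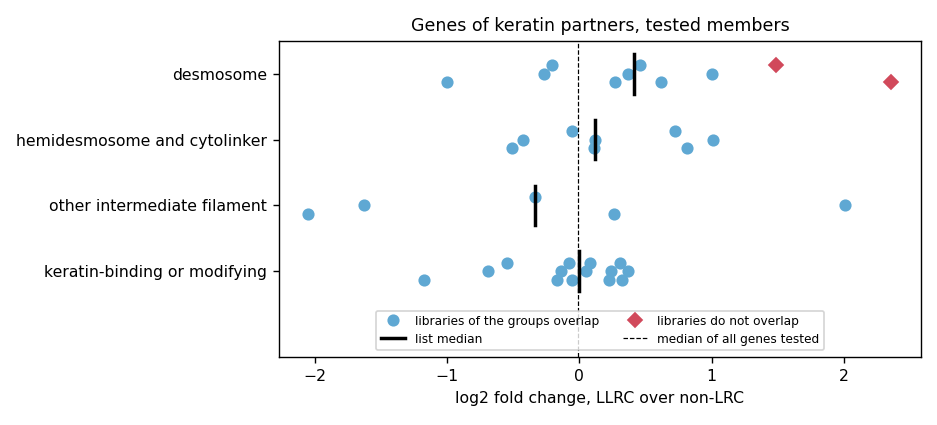
log2 fold change (LLRC over non-LRC) of each tested gene of the desmosome, hemidesmosome and cytolinker, other intermediate filament, and keratin-binding lists (1 point a gene, thick bar for the list median, dashed line for the median of all genes tested, -0.01). The 2 red diamonds, Dsc2 at 1.49 and Dsg1b at 2.36, are genes whose LLRC and non-LRC libraries did not overlap. Over all genes tested, every LLRC library was the higher for 2.15%.

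The labelled biliary identity was checked on markers. Epcam had 584 ± 48.6 CPM in LLRCs against 551 ± 148 in non-LRC cells, and Sox9, a duct transcription factor, had 368 ± 152 and 278 ± 108 CPM (SD, n = 4 each). All 21 cholangiocyte markers were tested, with a median log2 fold change of 0.29, 17 above 0 and 4 below. Aqp1, a water channel of bile ducts that endothelial cells also express, was the one cholangiocyte marker whose groups did not overlap, at 5.89 ± 2.01 against 99.5 ± 54.2 CPM (log2 fold change -4.07, SE 0.57, edgeR adjusted p = 0.08086). Spp1 alone took 7.85 to 18.9% of the counts of a library. Hepatocyte markers, from cells that also make Krt8 and Krt18, summed to 3692 to 4558 CPM in LLRC and 2675 to 8456 CPM in non-LRC libraries, with a median of -1.62 over 15 genes, while Alb was at 2336 ± 198 and 2319 ± 604 CPM.

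The endothelial list was lower in LLRCs. The study had named Pecam1, Cdh5, Esam, Eng, Flt1 and Tek, all on this list, as lower in LLRCs from these same libraries. The difference is therefore not independent support. The sum of the 15 genes was 38.7 to 86.7 CPM in LLRC and 248 to 1198 CPM in non-LRC libraries, 14 were tested with a median of -3.62, and in 13 every LLRC library was below every non-LRC library. Genes so low in LLRCs could pass the filter through the non-LRC libraries, so nothing is read from that median or that count. Pecam1, a defining marker, was at 2.05 ± 2.12 against 40.1 ± 16.9 CPM. The part of these markers in the keratin, Dsc2 or Vim differences was not tested.

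The other lists were smaller or closer between the groups. The hematopoietic list (4 of 14 tested, median -0.15) summed to 42.1 to 76.0 CPM in LLRC and 51.4 to 99.0 CPM in non-LRC libraries. Ptprc, which encodes the CD45 of the sort gate, was read in all 4 LLRC libraries and in 1 non-LRC library, at 3.28 ± 2.62 against 0.345 ± 0.691 CPM (log2 fold change 3.27, SE 1.42, edgeR adjusted p = 0.9565). The macrophage genes Lyz2, Adgre1 and Clec4f, which did not pass the filter, went the other way, with Lyz2 at 0.0834 against 1.80 CPM and the other two at 0 in all LLRC libraries against 1.93 and 0.967 CPM. The part of hematopoietic cells in the keratin values was not tested. The mesothelial list had a median of -1.26 over 6 genes, and the stellate and fibroblast list -1.90 over 7 of 11, with sums of 2472 to 9950 and 3520 to 9192 CPM. Of 11 pancreatic acinar genes 1 was tested (-1.96), and their sum was 2.13 to 7.56 CPM in LLRC libraries and 5.51, 6.47, 23.5 and 1966 CPM in non-LRC libraries. The 1966 CPM stood in the non-LRC library of JV6314, which had the highest Krt18 (885 CPM) but not the highest Krt8 (442 CPM). The part of acinar cells in that Krt18 value was not tested. Of 8 basal epithelial genes 1 was tested (Krt17).

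**Figure D5:**
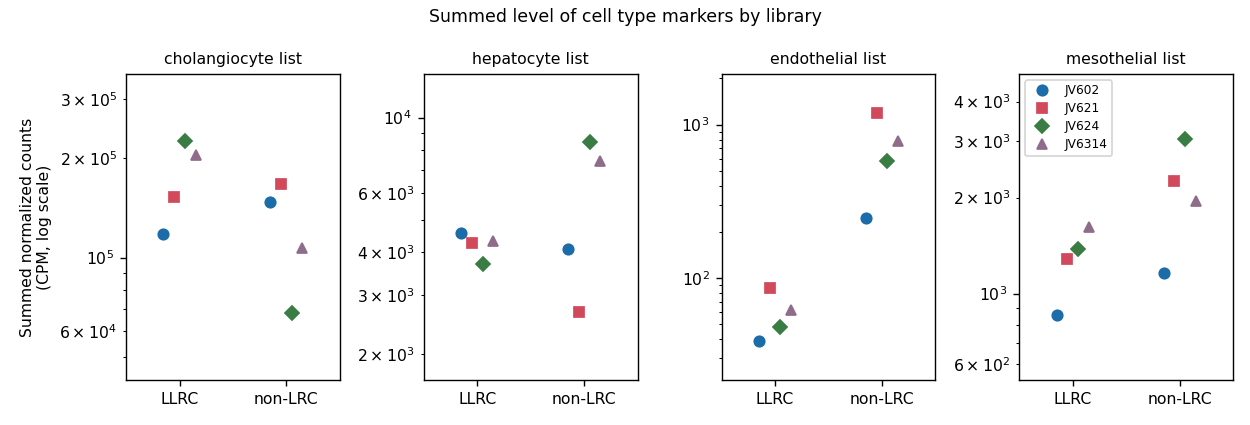
Summed CPM (vertical axis, log scale) of the cholangiocyte, hepatocyte, endothelial and mesothelial lists in each library, by group, with the symbol giving the mouse. The endothelial sums do not overlap between LLRC (38.7 to 86.7 CPM) and non-LRC libraries (248 to 1198 CPM), and JV624 has the highest non-LRC mesothelial sum. Spp1 makes up most of each cholangiocyte sum.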

How the data were processed

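The deposited values are raw read counts per Ensembl gene in 8 libraries. Reads were mapped at a service facility by an aligner not given in the sources used here, and the authors made the counts with HTSeq over exons of GRCm38.p4 genes, in its union mode and ignoring strand. A deposited table of the authors' edgeR comparison (edgeR 3.2.4 per the submitters' processing notes), with fold changes and p-values, was not used.

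The 13605 genes that passed filterByExpr were scaled by TMM and tested with edgeR 4.0.16 (R 4.3.3) by its quasi-likelihood test, with no term besides group, adjustment by Benjamini-Hochberg over all genes tested and a threshold of 0.05. Single levels and ratios were tested by exact permutation, levels as log2(CPM + 0.5). DESeq2 1.42.0, limma 3.58.1 with sample quality weights, the edgeR exact test, other scalings and filters, the mouse as a block, and leaving out each library or mouse were alternatives. The steps were tested on simulated data. Symbols, coordinates and transcripts came from GENCODE M21, which matched 46091 of 46603 identifiers. CPM intervals and floors of 3 counts cover counting error only.

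Each mouse gave a library to both groups, which pairs them. Across genes, departures from the group mean correlated between the paired libraries at 0.096 (JV602), 0.074 (JV621), 0.003 (JV624) and 0.171 (JV6314).

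The members and gene lists were chosen with earlier results of these data known. Named genes are the 9 members, other keratins that passed the filter, the 2 genes with the smallest p in each partner list, and the 3 genes nearest in pattern to Krt19 and to Krt7. Krt15, Dsc2, Dsc3, Dsg1a and the cell type markers named one by one were chosen after their values were seen. Eppk1 and Muc16 were listed and are not analysed here.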

Additional observations from a re-analysis of the deposited data

Results flagged for a closer look

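Krt10 had 83.7 CPM in the non-LRC library of JV621, against at most 23.9 CPM in the other 3 non-LRC libraries. That gap was 0.834 of the range of the 4 libraries, just past the critical value of Dixon's test. Chance flags about 1 in 20 groups, and 18 groups of 4 libraries were looked at. Without that library the non-LRC mean of Krt10 was 18.0 ± 5.96 CPM (SD, n = 3), against 37.1 ± 11.5 CPM in LLRCs (SD, n = 4).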

How the results depend on the processing

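No member was called in any of the 23 alternative settings. The number of genes called, 0 by the quasi-likelihood test, was 11 with no filter beyond 1 count, 221 by DESeq2, 159 by the edgeR exact test and 73 with a newer form of the quasi-likelihood dispersion. It ran from 0 to 6 when libraries or mice were left out, with 6 without the non-LRC library of JV602. With the mouse as a replicate block it was 0, and 52 when that paired fit used the newer dispersion, an alternative chosen after seeing the data. The block changed no call among the members. It moved the median log2 fold change of all genes to 0.14, and limma moved it to 0.10, from -0.01. The median of the 5 tested members, that of Krt8, was 0.18 with the block and 0.01 in limma. Krt18 went from 0.10 to -0.01 in limma and ran from -0.07 to 0.33 with libraries or mice left out, reversing at -0.07 without the non-LRC library of JV621. Krt19 ran from -0.38 to 0.05, reversing at 0.05 without both libraries of JV624. Krt7 (0.02 to 0.54), Krt8 (0.01 to 0.34) and Krt23 (0.35 to 0.88) kept their sign in all 23. In limma, though, Krt7 (0.05) and Krt8 (0.01) lay below the median of all genes (0.10). The Krt8 to Krt18 difference ran from -0.15 to 0.15, and that of Krt7 to Krt19 from 0.27 to 0.61 (exact permutation p from 0.08571 to 0.3143). The causes of these changes were not tested. With 4670132 to 9851819 counts a library, Krt20, Krt80, Krt5 and Krt14 were at or near 0 and did not pass the filter. With no filter beyond 1 count all but Krt20 entered, and with 1 CPM in 2 libraries Krt14 did, and none was called.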
